A study of Mus musculus with 4 samples.

Results

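B cells of malignant ascites were described in a mouse model of ovarian cancer, in which the small molecule BTYNB was given alone or together with an antibody against PD-1. A cell was taken as a B cell if it held at least 3 unique molecular identifiers (UMIs, each standing for 1 captured transcript) of Cd79a and Cd79b together, at most 1 UMI of Cd3d, Cd3e and Cd3g, at most 2 UMIs of Lyz2 and at most 2 UMIs of the keratins Krt7, Krt8, Krt18 and Krt19. Cd79a and Cd79b encode the signalling chains of the B cell receptor, and the other genes mark T cells, macrophages and tumour cells. This rule found 3111 B cells among 45178 cells kept in the whole series (at least 200 genes and at most 33% mitochondrial UMIs), of 46342 deposited cells. Of these, 3041 came from the BTYNB library and 70 from the combination library. The same rule found 3 cells in the control library and 1 cell in the anti-PD-1 library, which were not described further.

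All groups were C57BL/6 mice that carried ID8-Trp53-/- cells, a Trp53-deficient mouse ovarian tumour line injected into the peritoneal cavity, and treatment began after 7 days of engraftment. The control group received DMSO vehicle with an IgG2a isotype antibody, the BTYNB group BTYNB (directed against the RNA-binding protein Igf2bp1) with the isotype antibody, the anti-PD-1 group the antibody clone RMP1-14 with DMSO, and the combination group both agents. The labels give 50 mg/kg of BTYNB and 100 ng of antibody per dose, and the study's methods section gives different amounts. Ascites was taken at about 3 mL, freed of erythrocytes, cryopreserved and pooled over the animals of a treatment into 1 library. The animals were thus not separated, no test between treatments was possible, and no p-value is given. All intervals are exact 95% intervals that cover counting error only.

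B cells sense antigen through a surface immunoglobulin of heavy and light chains that is coupled to Cd79a and Cd79b. Mature follicular B cells carry IgM and IgD together, the product of alternative splicing of 1 long transcript, and they express the receptors CD23 (Fcer2a) and CD21 (Cr2). The peritoneal cavity also holds B-1 cells, a self-renewing population with high IgM, low IgD and little or no CD23 that secretes natural antibody. Plasma cells no longer depend on surface immunoglobulin and secrete large amounts of it, joined by the J chain (Jchain) where it is IgM or IgA.

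The depth of the libraries bore on every value. The smallest deposited cell held 869 UMIs in the BTYNB library and 5115 UMIs in the combination library, and 69.8% of the kept BTYNB cells lay below 5115 UMIs. The median B cell held 1843 UMIs and 1063 genes in the BTYNB library against 5930.5 UMIs and 2406 genes in the combination library. Only 77 of the 3041 BTYNB B cells reached 5115 UMIs. Comparisons between both libraries were therefore repeated in cells with at least 5115 UMIs. No cell barcode was shared between B cells of any pair of libraries, and 0 to 4 barcodes were shared over all cells.

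B cells made up 16.6% of kept cells in the BTYNB library (16.1 to 17.2%) and 0.994% in the combination library (0.776 to 1.25%). The 3 control cells made up 0.0383% (0.00790 to 0.112%) and the 1 anti-PD-1 cell 0.00832% (0.000211 to 0.0463%). At 5115 UMIs or more, the share was 1.39% in the BTYNB library (1.10 to 1.74%, 77 of 5521 cells), 0.0271% in control (2 of 7367) and 0.0108% in anti-PD-1 (1 of 9256). The intervals of the BTYNB and combination libraries did not overlap over all kept cells and overlapped above this depth, and both lay above those of control and anti-PD-1 at either depth. T cells chosen by a matching rule (Cd3d, Cd3e and Cd3g at 3 UMIs or more) moved likewise, from 8.33% over all BTYNB cells to 1.61% at 5115 UMIs or more, against 0.639% in the combination library. Whether the smaller share in the combination library reflects the cells or the depth of the deposited matrix cannot be told apart over all cells.

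**Figure D1:**
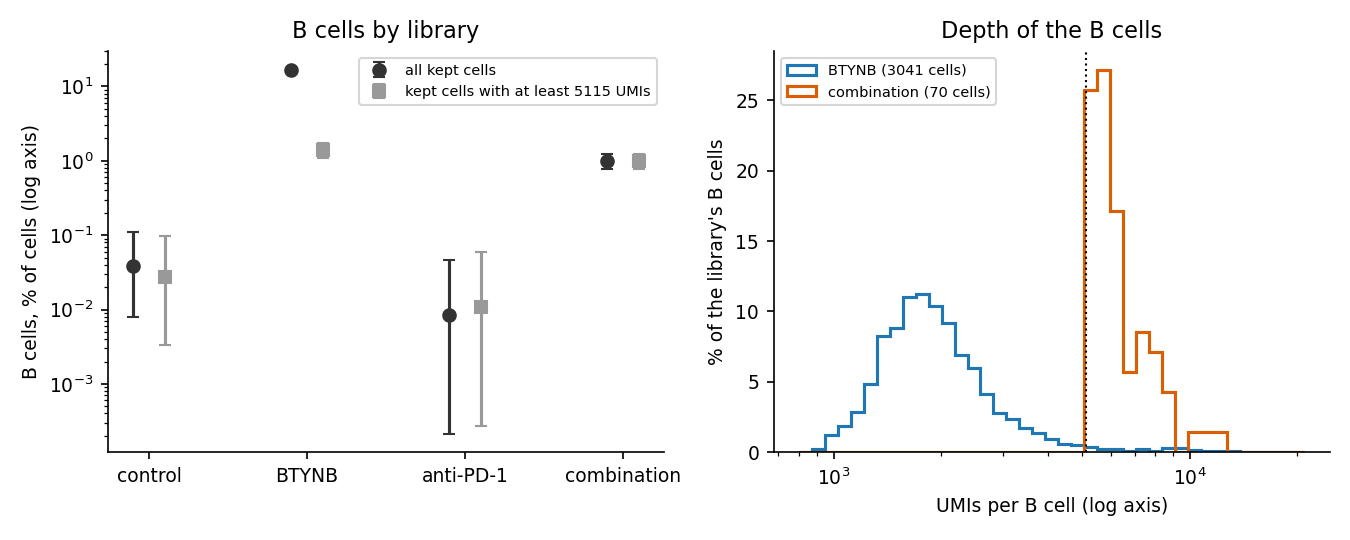
Share of B cells among kept cells in each library, over all cells and over cells with at least 5115 UMIs (left, log axis, bars with exact 95% intervals for counting error). The right panel shows the percentage of each library's B cells by UMIs per cell. The BTYNB share moves from 16.6% to 1.39% above 5115 UMIs, since 77 of 3041 BTYNB B cells reach that depth and all 70 combination B cells do.

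B cell genes that the rule did not use were found in most of these cells. At least 1 UMI of Ms4a1 (CD20) or Pax5 (the transcription factor that keeps B cell identity) was present in 86.6% of BTYNB and 87.1% of combination B cells. Ms4a1 stood at 706 CPM (UMIs of a class scaled to a common total) in BTYNB B cells and 969 CPM in combination B cells, against 2.50 and 3.15 CPM in T cells of the same libraries. Pax5 stood at 586 and 273 CPM, against 2.75 CPM in BTYNB T cells. In the BTYNB library, the 242 cells just outside the threshold (2 UMIs of Cd79a and Cd79b) held one of these genes in 74.4% of cases, and the 324 cells just inside it (3 UMIs) in 78.7%. The 77 BTYNB B cells of at least 5115 UMIs held one of them in 70.1%.

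RNA of other cell types was present in part of the B cells. A fixed count of 3 UMIs was reached more often in large cells, which hold more UMIs of any kind. At least 3 UMIs of some marker list of another cell type were found in 14.5% of BTYNB B cells below 5115 UMIs, in 63.6% of those above and in 54.3% of combination B cells. The 6 dendritic cell markers summed to 52.7 CPM below and 449 CPM above that depth in BTYNB B cells, and to 380 CPM in combination B cells. Macrophage markers summed to 274 and 271 CPM and tumour markers to 305 and 293 CPM in BTYNB and combination B cells. The 4 neutrophil markers summed to 137 CPM in BTYNB B cells and were all at 0 in combination B cells. Within BTYNB B cells, not every list was higher above 5115 UMIs. Macrophage markers summed to 292 CPM below and 111 CPM above that depth, and neutrophil markers to 144 and 78.7 CPM. Erythroid and platelet markers summed to 668 and 319 CPM, plasmacytoid markers to 37.9 and 24.7 CPM, and tumour markers to 304 and 310 CPM. T cell markers summed to 77.4 and 94.1 CPM and NK cell markers to 27.1 and 173 CPM. The part of these markers in the results was not tested, and for some genes compared between large cells a value without the cells that carried them is given, which rests on 29 combination and 14 BTYNB cells.

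Within the class, cells were split by the heavy chain. The Ighd group held at least 1 UMI of Ighd, the constant gene of IgD. The Ighm-only group held 0 UMIs of Ighd and at least 3 UMIs of Ighm, the constant gene of IgM. In the BTYNB library, 2499 B cells fell into the Ighd group (82.2%, 80.8 to 83.5%), 377 into the Ighm-only group (12.4%, 11.2 to 13.6%) and 165 into the third group with neither (5.43%). In the combination library, the groups held 33 cells (47.1%, 35.1 to 59.4%), 32 cells (45.7%, 33.7 to 58.1%) and 5 cells (7.14%). A smaller part of B cells thus carried Ighd in the combination library although its cells were deeper.

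The size of this difference depended on how depth was matched. Thinned to 1000 UMIs per cell, Ighd was found in 67.5% of BTYNB B cells (65.8 to 69.2%, 32 cells left out) and in 14.3% of combination B cells (7.07 to 24.7%, 0 left out). In cells of at least 5115 UMIs, 63.6% of BTYNB B cells (49 of 77) fell into the Ighd group, with an interval that overlapped that of the combination library. Summed over all B cells, the level of Ighd was 1201 CPM (1175 to 1228) in the BTYNB library and 184 CPM (147 to 229) in the combination library. Ighd RNA outside B cells was rare: 1.58% of BTYNB T cells (median 2222 UMIs) and 1.32% of BTYNB tumour cells (median 18777 UMIs) held a UMI, as did 0 of 45 T cells (upper bound 7.87%) and 1.51% of tumour cells of the combination library. Thinned likewise, Ighd was found in 0.465% of BTYNB T cells, where 17 cells were left out. Ighm RNA outside B cells was more frequent, with a UMI in 21.7% of BTYNB T cells and in 18 of 45 combination T cells, and 3 UMIs or more in 2.56% and 13.3%.

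The counts that define the groups were spread widely among cells. In the BTYNB library the median cell held 6 UMIs of Ighm in both groups, with up to 45 in the Ighd group and up to 40 in the Ighm-only group. The median Ighd cell held 3 UMIs of Ighd, and 602 cells held exactly 1. In the combination library the median was 18 UMIs of Ighm in the Ighd group and 29.5 in the Ighm-only group, and the median Ighd cell held 1 UMI of Ighd. These are raw counts, at median depths of 5907 and 5930.5 UMIs against 1861 and 1795 UMIs in the BTYNB groups. At the lower end of the Ighm threshold, 57 BTYNB cells without Ighd held 2 UMIs of Ighm and another 57 held 3, and Fcer2a was present in 38.6% and 36.8% of them. The groups are therefore ranges along these counts, and a cell at 0 UMIs of Ighd is not shown to lack its RNA at this depth.

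**Figure D2:**
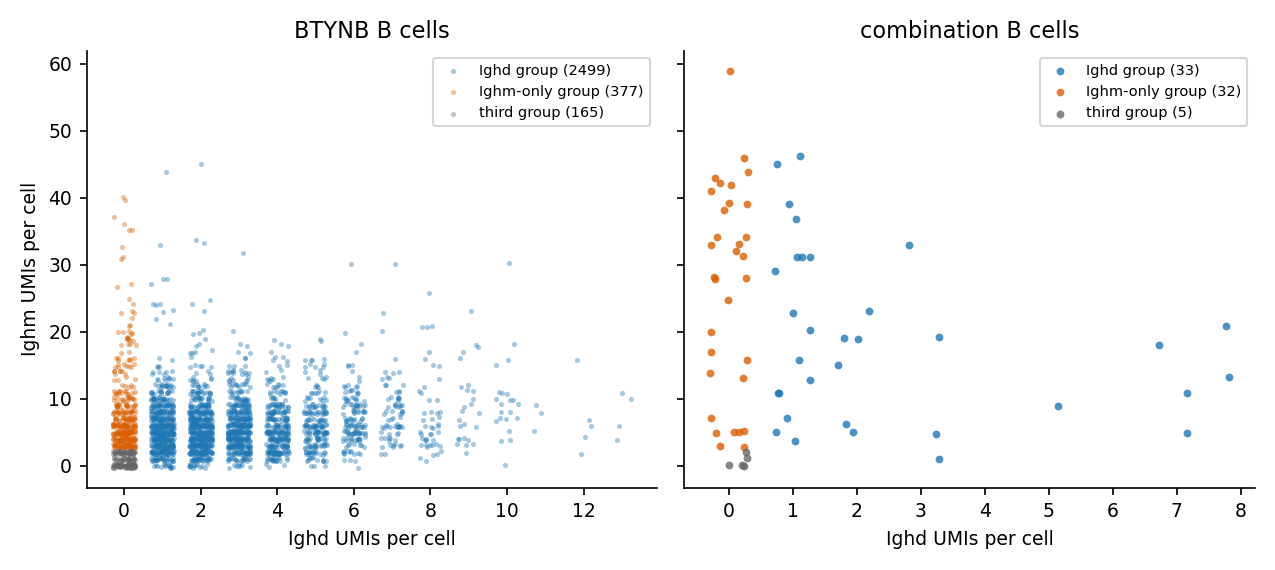
UMIs of Ighm and of Ighd in each B cell of the BTYNB library (3041 cells) and the combination library (70 cells), both as raw UMIs per cell. The BTYNB cells spread along both axes with a median of 6 Ighm UMIs in the Ighd and Ighm-only groups. The combination cells lie at higher raw Ighm, with a median of 18 or 29.5 UMIs in these groups, and at few Ighd UMIs. Counts are not scaled for depth, which was a median of 1843 UMIs per BTYNB B cell and 5930.5 per combination B cell.

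The first comparison asked what else differed between Ighm-only and Ighd B cells of the same BTYNB library, where depth was alike (medians of 1795 and 1861 UMIs). UMIs were summed per group, scaled to CPM and compared as log2 ratios with a pseudocount of 1 CPM, whereas the intervals are those of the raw counts. Of 8968 genes with at least 50 UMIs, 49 were at least 2-fold higher in Ighm-only cells (0.546%) and 190 at least 2-fold lower (2.12%), and the median log2 ratio over all genes was -0.03. Both groups come from the same library and the split itself uses Ighd and Ighm, which were left out.

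Genes known from B-1 cells were higher as a list in the Ighm-only cells over all depths. The median of the list was not above 0 in the few deep ones. All 12 measured members of the B-1 list of 14 genes had ratios above 0, with a median log2 ratio of 0.72. At least 2-fold higher were 4 of them and at least 2-fold lower 0, against 0.546% and 2.12% of all genes. In BTYNB cells of at least 5115 UMIs, which leaves 10 Ighm-only and 49 Ighd cells, the median of the list was -0.066. Fcrl5, Zcwpw1 and Bhlhe41 kept ratios above 0 in these few cells (2.30, 2.06 and 2.51), while other members, not named here, lay below 0. Both groups together held only 20 UMIs of Fcrl5 and 13 of Zcwpw1 at this depth. After thinning of these cells, the list was found in 40% of Ighm-only cells (12.2 to 73.8%) and 67.3% of Ighd cells (52.5 to 80.1%). Detection was thus not more frequent in the deep Ighm-only cells. The intervals overlapped, and the mean UMIs of the list per thinned cell were alike (0.9 and 0.92). Over all depths Fcrl5, an inhibitory Fc receptor-like protein of B-1 and marginal zone B cells, had the largest ratio of the list. It stood at 72.0 CPM (58 UMIs) in Ighm-only cells and 15.6 CPM (82 UMIs) in Ighd cells, a log2 ratio of 2.14 (1.70 to 2.71). Zcwpw1 followed at 34.8 against 13.5 CPM (1.30, 0.68 to 2.01), and Bhlhe41, a transcription factor needed for B-1a cells, at 31.1 against 12.2 CPM (1.28, 0.62 to 2.04). Spn (CD43), a surface sialoglycoprotein of B-1 cells, stood at 21.1 against 8.37 CPM (1.24, 0.43 to 2.17).

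The remaining members lay lower. Pdcd1lg2 (PD-L2, a ligand of PD-1) had a log2 ratio of 0.89 (0.10 to 1.72), Tbc1d9 0.87 (0.31 to 1.45) and Plscr1 0.55 (0.14 to 0.97). The ratios of Ctla4 and Cd9 were 0.09 and 0.11, with intervals that held 0. Zbtb32, a transcription repressor of B-1 cells and memory B cells, had too few UMIs to be among the genes compared, with 28 UMIs in Ighm-only cells (34.8 CPM, 23.1 to 50.3) and 16 in Ighd cells (3.04 CPM, 1.74 to 4.94). Thinned to 1000 UMIs, at least 1 UMI of the B-1 list was found in 30.2% of Ighm-only cells (25.5 to 35.1%, 9 left out) and in 22.8% of Ighd cells (21.1 to 24.5%, 18 left out). Most cells of either group thus had no UMI of the list at that depth.

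Genes of follicular B cells were lower in the Ighm-only cells, by less. Of 12 members, 10 had ratios below 0, with a median log2 ratio of -0.22, and 1 was at least 2-fold lower, against 2.12% of all genes. Cr2, the complement receptor CD21, stood at 82.0 CPM in Ighm-only and 177 CPM in Ighd cells (-1.10, -1.49 to -0.75). Fcer2a, the low-affinity IgE receptor CD23, stood at 236 and 437 CPM (-0.89, -1.11 to -0.68). Ccr7, the receptor that guides cells to lymphoid T cell zones, stood at 98.1 and 177 CPM (-0.84, -1.20 to -0.52). Icosl, the ligand of ICOS, had a log2 ratio of -0.55 (-0.92 to -0.20), while Klf2, a transcription factor that keeps B cells circulating, was higher in Ighm-only cells (0.33, 0.21 to 0.45).

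**Figure D3:**
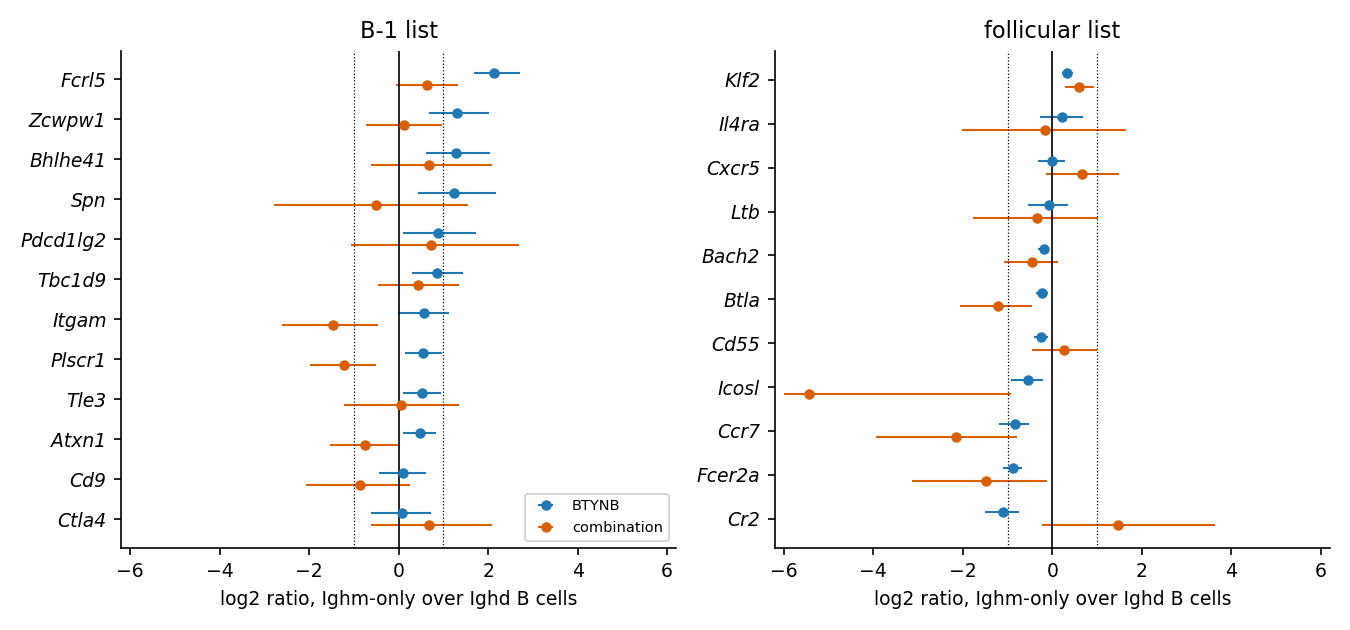
Log2 ratio of Ighm-only over Ighd B cells for the genes of the B-1 and follicular lists in each library (points with exact 95% intervals of the counts, drawn within 6 log2 units). In the BTYNB library all 12 measured B-1 genes lie above 0 and 9 of the 11 follicular genes drawn lie below 0, whereas the combination intervals are wide and 7 of the 12 B-1 genes lie above 0.

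The promoters of the genes that carry these contrasts are shown from RefSeq on the build GRCm38.p6, each as a window of 300 bases around a start site, most of it upstream. Fcrl5 and Zbtb32 were chosen for the B-1 list and Fcer2a for the follicular list, and for Zbtb32 and Fcer2a the first of several annotated starts was taken. The files were made on GRCm39, so these coordinates belong to the RefSeq table alone. Letters of 3 motifs, searched on both strands, are in capitals where they occur.
Fcrl5 (chr3:87435532-87435831, plus strand): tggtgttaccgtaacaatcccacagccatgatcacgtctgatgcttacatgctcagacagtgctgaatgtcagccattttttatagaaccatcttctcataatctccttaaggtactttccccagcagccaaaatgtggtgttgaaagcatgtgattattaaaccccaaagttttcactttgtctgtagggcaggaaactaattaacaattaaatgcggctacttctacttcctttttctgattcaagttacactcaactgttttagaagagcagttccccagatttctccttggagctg
Zbtb32 (chr7:30598860-30599159, minus strand): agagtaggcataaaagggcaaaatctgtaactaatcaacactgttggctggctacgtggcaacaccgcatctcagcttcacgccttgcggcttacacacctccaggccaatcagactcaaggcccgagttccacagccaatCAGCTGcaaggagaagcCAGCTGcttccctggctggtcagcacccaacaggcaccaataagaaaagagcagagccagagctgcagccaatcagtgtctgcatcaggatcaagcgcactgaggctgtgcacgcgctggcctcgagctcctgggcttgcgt
Fcer2a (chr8:3694125-3694424, minus strand): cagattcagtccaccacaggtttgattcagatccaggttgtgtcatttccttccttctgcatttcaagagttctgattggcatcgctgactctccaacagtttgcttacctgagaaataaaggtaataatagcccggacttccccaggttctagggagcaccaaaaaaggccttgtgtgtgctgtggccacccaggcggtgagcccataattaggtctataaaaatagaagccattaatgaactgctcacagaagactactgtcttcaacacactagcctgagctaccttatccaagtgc
The motifs were the octamer ATTTGCAT bound by Oct proteins, the core GAGGAA of PU.1 sites and the E-box CAGCTG, which were found in 1.74%, 28.3% and 16.3% of all 32851 RefSeq promoter windows. CAGCTG occurred at 2 places in the Zbtb32 window, and none of the 3 motifs occurred in the Fcrl5 and Fcer2a windows shown. The other annotated starts differed, since the second Fcer2a window held CAGCTG at 1 place and the second Zbtb32 window held none of the motifs. A match describes letters in this window and says nothing of binding in these cells.

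Beyond the lists, genes were named when their interval lay beyond a 2-fold difference and their sign was the same in the combination library. The 6 higher genes of this kind were Fcrl5, Nid1 (the basement membrane protein nidogen), Sspn (sarcospan), Ass1 (argininosuccinate synthase), Dnase1l3 (a secreted DNase) and Rassf4. Nid1 stood at 79.5 CPM in Ighm-only cells and 19.8 CPM in Ighd cells (1.95, 1.53 to 2.47), and Sspn at 58.4 and 14.8 CPM (1.91, 1.42 to 2.52). Ass1 had a log2 ratio of 1.68 (1.17 to 2.30), Dnase1l3 of 1.60 (1.09 to 2.20) and Rassf4 of 1.5 (1.02 to 2.06). No single cell of the BTYNB library held more than 11.9% of the UMIs of any of these 6 genes in either group. Sspn was also found in tumour cells of this library (36.5 CPM) and Rassf4 in macrophages (160 CPM), and Nid1 stood at 2.92 CPM and Fcrl5 at 0.148 CPM in tumour cells.

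The 3 lower genes of this kind were Xcr1, Septin3 and Cd209a, of which Xcr1 and Cd209a mark dendritic cells. Xcr1 was absent from the Ighm-only cells and had 78 UMIs in the Ighd cells (14.8 CPM), at least 3.98-fold higher there when 3 UMIs are set for the 0. Cd209a had 1 against 76 UMIs and Septin3 2 against 135 UMIs. A single cell held 35.5% of the Cd209a UMIs of the Ighd group. For Xcr1 and Septin3 the largest share in 1 cell of that group was 16.7% and 13.3%. Dendritic cell markers summed to 99.9 CPM in the Ighd group. In the combination library, whose sign had to match, the Ighd group held 29 UMIs of Xcr1, 19 of Septin3 and 14 of Cd209a. A single cell held 96.6%, 68.4% and 35.7% of them.

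Other groups of B cell genes differed less. Among early activation genes, 10 of 16 had ratios above 0 (median 0.11), with Cd80, a ligand of CD28 and CTLA-4, the only one at least 2-fold higher (39.7 against 14.6 CPM, 1.38, 0.80 to 2.05) and Egr1 at 0.48 (0.38 to 0.57). Fcgr2b, the inhibitory receptor for IgG, stood at 276 and 166 CPM (0.72, 0.51 to 0.94). Plac8, listed among marginal zone genes, stood at 701 and 359 CPM (0.96, 0.82 to 1.10). Fcmr, the receptor for secreted IgM, stood at 181 and 348 CPM (-0.94, -1.19 to -0.70). The 10 genes of MHC class II antigen presentation had a median of -0.07, the 10 of B cell receptor signalling -0.10 and the 12 measured type I interferon genes -0.05. None of these 3 lists had a member that was 2-fold apart.

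In the combination library the same split rested on 32 and 33 cells. The B-1 list had 7 of 12 genes above 0 with a median log2 ratio of 0.09, and the follicular list had a median of -0.25. The 6 named higher genes, chosen for their sign here, ran from 0.22 for Ass1 to 1.37 for Dnase1l3, and only the interval of Dnase1l3 lay above 0 (0.38 to 2.49), with 36.7% of its Ighm-only UMIs in 1 cell. Over all genes, 50.4% had the same sign in both libraries. Ms4a1 was higher in Ighm-only cells by about the same amount in each, at 0.43 (0.31 to 0.54) in the BTYNB library and 0.44 (0.16 to 0.73) in the combination library. Differences between Ighm-only and Ighd cells in the combination library were not detectable at this depth for most genes.

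The second comparison asked how all B cells of the combination library differed from those of the BTYNB library, that is, with against without the PD-1 antibody on top of BTYNB. Of 9336 genes with at least 50 UMIs over both libraries, 622 were at least 2-fold higher in the combination library (6.66%) and 1065 at least 2-fold lower (11.4%), with a median log2 ratio of -0.10. These counts cover 70 cells against 3041 shallower cells. Values are therefore given over all B cells and, as the deep cells, over those of at least 5115 UMIs outside the third group, which leaves 65 combination and 59 BTYNB cells. The third group was left out of the deep cells because 14 of its BTYNB cells were rich in immunoglobulin RNA, as described further on.

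B-1 genes were higher in the combination library. All 13 measured members had ratios above 0 and 10 were at least 2-fold higher, against 6.66% of all genes, with a median log2 ratio of 1.67. In the deep cells the median was 0.73 and 7 of the 13 had ratios above 0. Zbtb32 stood at 107 CPM (48 UMIs) in combination and 8.14 CPM (53 UMIs) in BTYNB B cells, a log2 ratio of 3.56 (3.12 to 4.30) and of 2.27 in the deep cells. Fcrl5 stood at 171 and 22.0 CPM (2.91, 2.54 to 3.37), with 2.14 in the deep cells. Zcwpw1 stood at 113 and 15.7 CPM (2.78, 2.34 to 3.35), with 2.15 in the deep cells.

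Not every B-1 gene kept this direction in the deep cells. Bhlhe41 stood at 62.2 and 18.9 CPM over all B cells (1.67, 1.07 to 2.32) and had a log2 ratio of 1.25 in the deep cells (0.19 to 2.47). Itgam (CD11b), an integrin chain shared with myeloid cells, moved from 1.70 over all B cells to -1.06 in the deep cells (-1.61 to -0.54), and Cd9 from 0.87 to -0.96 (-1.62 to -0.35). Plscr1 moved from 1.73 to -0.29 (-0.73 to 0.13). Without the cells that carried markers of other cell types, which leaves 29 combination and 14 BTYNB deep cells, the log2 ratio was 2.44 for Zbtb32 (0.80 to 4.83) and 2.0 for Fcrl5 (0.78 to 3.54). In these cells it was 0.35 for Zcwpw1 (-0.90 to 1.76) and -0.23 for Bhlhe41 (-1.74 to 1.37), with intervals that held 0.

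Detection was also compared in cells thinned to 1000 UMIs. The B-1 list was found in 24.2% of BTYNB B cells (22.7 to 25.8%) and 61.4% of combination B cells (49.0 to 72.8%). Of the 77 BTYNB B cells of at least 5115 UMIs, thinned in the same way, 58.4% held it (46.6 to 69.6%). Without cells that carried markers of other cell types, 28 of these BTYNB cells and 32 combination cells were left. The list was then found in 50.0% (30.6 to 69.4%) and 65.6% (46.8 to 81.4%) of them. Deep BTYNB B cells thus lay nearer to the combination B cells than to BTYNB B cells as a whole by this measure. In all of these values 1000 UMIs were read from each cell.

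Genes found together with Fcrl5 were counted per cell. Of the 70 combination B cells, 31 held Fcrl5. Of these, 74.2% held Nid1 (55.4 to 88.1%), 61.3% held Zbtb32 (42.2 to 78.1%) and 3.23% held Fcer2a, against 25.6%, 17.9% and 35.9% of the 39 cells without Fcrl5, at median depths of 5945 and 5907 UMIs. In the BTYNB library, 96 of 3041 B cells held Fcrl5. Of these, 28.1% held Nid1 (19.4 to 38.2%), 13.5% held Zbtb32 (7.41 to 22.0%) and 28.1% held Fcer2a, against 2.95%, 0.747% and 47.8% of the others, at median depths of 2895.5 and 1831 UMIs. In either library Nid1 and Zbtb32 were found more often, and Fcer2a less often, in cells with Fcrl5, and these cells were also deeper in the BTYNB library. Ighd was present in 41.9% of the Fcrl5 cells of the combination library and 55.2% of those of the BTYNB library. In T cells Fcrl5 was found in 0 of 1523 cells of the BTYNB library and in 1 of 45 of the combination library.

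Follicular genes were lower in the combination library over all B cells, and only some of them were so in the deep cells. Over all B cells, 10 of 12 members had ratios below 0, with a median log2 ratio of -1.52. At least 2-fold lower were 8 of them, against 11.4% of all genes. In the deep cells the median was -0.16, and 4 members had ratios above 0. Fcer2a stood at 57.8 CPM (26 UMIs) in combination and 393 CPM (2557 UMIs) in BTYNB B cells, a log2 ratio of -2.74 (-3.38 to -2.21), and of -1.25 in the deep cells (-2.0 to -0.57), which became -2.17 without cells that carried markers of other cell types. Icosl stood at 22.2 and 119 CPM (-2.37, -3.49 to -1.54), with -1.43 in the deep cells (-2.73 to -0.35).

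Other follicular genes depended on depth. Btla, an inhibitory receptor, had a log2 ratio of -2.11 over all B cells and -0.64 in the deep cells (-1.09 to -0.21). Cr2 moved from -2.20 to -0.32 (-1.38 to 0.68), and Bach2, a repressor that holds back plasma cell differentiation, from -1.87 to 0.00 (-0.40 to 0.39). Klf2 and Cxcr5, the chemokine receptor for entry into follicles, were higher in the deep cells, at 1.40 (1.13 to 1.68) and 1.73 (1.0 to 2.57). Cxcr4, another homing receptor, was lower in either form, at -2.26 and -1.11 (-2.01 to -0.32). A UMI of Fcer2a or Cr2 was found in 39.4% of thinned BTYNB B cells (37.7 to 41.2%), in 14.3% of those of at least 5115 UMIs (7.35 to 24.1%) and in 7.14% of combination B cells (2.36 to 15.9%).

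**Figure D4:**
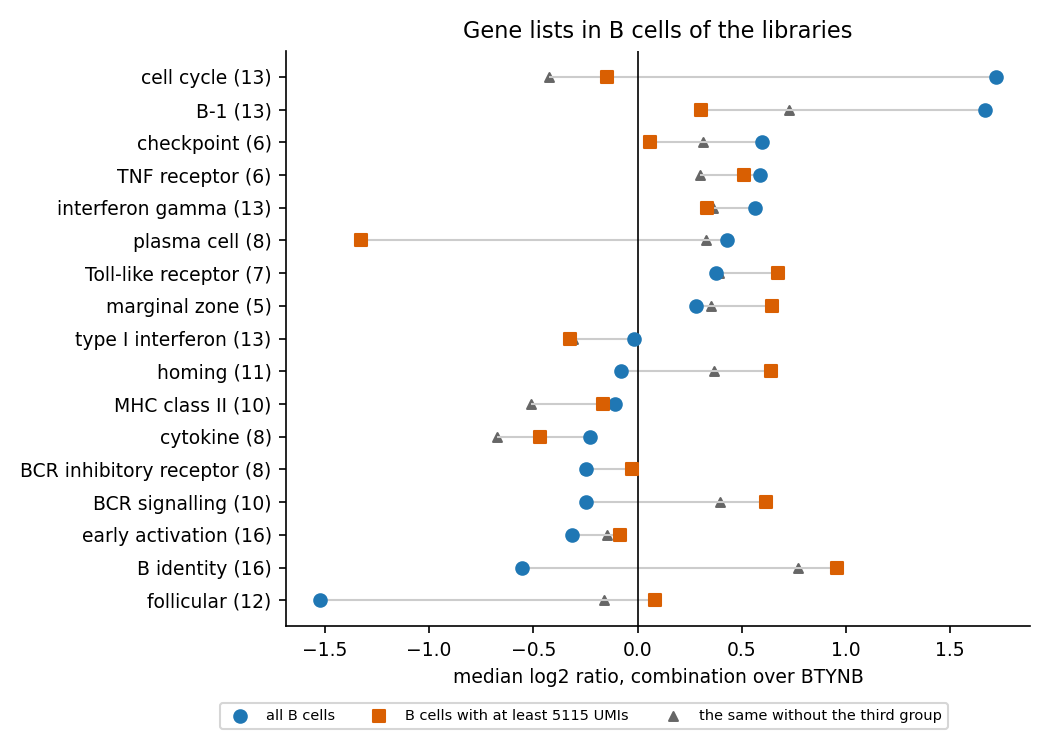
Median log2 ratio of combination over BTYNB B cells for each gene list, over all B cells, over B cells of at least 5115 UMIs, and over those outside the third group. The B-1 median moves from 1.67 to 0.30 and 0.73 and the follicular median from -1.52 to 0.08 and -0.16 across these forms.

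Genes of cell division were higher in the combination library over all B cells, and their direction changed with the cells compared. All 13 measured members had ratios above 0 and 10 were at least 2-fold higher, against 6.66% of all genes, with a median log2 ratio of 1.72. In the deep cells the median was -0.42 and 1 member had a ratio above 0. Without the cells that carried markers of other cell types, the median was 1.60 and 11 members had ratios above 0. Mki67, a nuclear protein of cycling cells, stood at 231 and 41.9 CPM over all B cells (2.44, 2.12 to 2.79) and had a log2 ratio of 0.38 in the deep cells (-0.08 to 0.83). One combination cell held 20.2% of the Mki67 UMIs. Top2a, a DNA topoisomerase, moved from 2.02 to -0.42 (-0.79 to -0.07).

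B cell identity genes moved the other way with depth. Over all B cells, 13 of 16 measured members had ratios below 0 (median -0.55), whereas in the deep cells 14 had ratios above 0 (median 0.77). Ms4a1 was higher in the combination library in either form, at 0.46 (0.31 to 0.60) and 1.32 (1.08 to 1.58). Pax5 moved from -1.10 (-1.37 to -0.84) to 0.82 (0.41 to 1.25). B cell receptor signalling genes moved alike, from a median of -0.25 to 0.39 with all 10 members above 0. Zeb2, a transcription factor of the Tbx21 and Itgax list, was higher in either form, at 1.70 (1.48 to 1.93) and 1.51 (1.13 to 1.90), and so were Plac8, at 1.37 and 0.85, and Fcgr2b, at 0.67 and 0.65.

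Interferon and antigen presentation genes were read in the same forms. The 13 measured type I interferon genes had a median of -0.02 over all B cells and -0.31 in the deep cells, and the 10 MHC class II genes -0.11 and -0.51. The 13 measured interferon gamma genes had a median of 0.56 and 0.36. Over all B cells 3 of them were at least 2-fold higher and 1 at least 2-fold lower, against 6.66% and 11.4% of all genes. In the deep cells without markers of other cell types, their median was -0.32 and 4 members had ratios above 0. Cd274, which encodes PD-L1, the ligand of PD-1, stood at 169 CPM (133 to 211) in combination and 132 CPM (123 to 141) in BTYNB B cells (0.35, 0.00 to 0.70). Pdcd1, the target of the antibody, had 1 UMI in 3041 BTYNB B cells (0.154 CPM, 0.00389 to 0.855) and 0 UMIs in 70 combination B cells, against 27.7 CPM in BTYNB T cells. Igf2bp1, the target of BTYNB, had 16 UMIs in BTYNB B cells (2.46 CPM, 1.40 to 3.99) and 1 UMI in combination B cells (2.22 CPM), against 9.26 and 11.9 CPM in tumour cells of these libraries. Neither target was thus present in B cells at a level that could be compared.

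Among the 15 genes with the largest ratios were Prkar2b, a regulatory subunit of protein kinase A (82.2 against 3.53 CPM, 4.2, 3.75 to 5.36), Gbp2b, an interferon-induced GTPase (100.0 against 5.99 CPM, 3.85, 3.41 to 4.72), Rassf4 (204 against 25.6 CPM, 2.95, 2.61 to 3.37) and Pdlim1 (138 against 20.6 CPM, 2.69, 2.29 to 3.19). All 4 were also higher in the deep cells, at 2.20, 2.08, 2.44 and 2.26. Without the cells that carried markers of other cell types, Prkar2b stood at 2.86 (0.93 to 6.03) and Gbp2b at 2.75 (0.81 to 5.93). Rassf4 stood at 2.12 (0.92 to 3.65) and Pdlim1 at 1.77 (0.42 to 3.50) in this form. These values rest on 2, 2, 6 and 5 UMIs in BTYNB cells. A single combination cell held 29.7% of the Prkar2b UMIs, and for the other genes the largest share was 17.8%. The named gene Nid1 stood at 176 and 28.9 CPM (2.56, 2.21 to 2.99), with 4.08 in the deep cells (2.92 to 5.87). Its ratio was 3.51 without the cells that carried markers of other cell types. Other members of the 15 rested on single cells or on other cell types. The collagen gene Col1a1 had the largest ratio (5.44), and 1 cell held 96.2% of its UMIs. Xcr1 and Clec9a, markers of dendritic cells, had 60.9% and 40.7% of their UMIs in 1 cell, as did Gatm with 64.8% and Igfbp7 with 59.1%. The others were Agbl1, Csf2rb2, Gm31718 and the B-1 genes Zbtb32, Fcrl5 and Zcwpw1.

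The 15 genes with the smallest ratios all had 0 UMIs in combination B cells, so their ratios were read only as bounds with 3 UMIs set for the 0. Ighg1 was at least 54.5-fold lower, but 1 BTYNB cell held 98.1% of its 2366 UMIs. The neutrophil genes S100a9, S100a8 and Csf3r were at least 10.3-fold, 6.75-fold and 2.56-fold lower. The mast cell proteases Cpa3, Cma1 and Tpsb2 each had over 98% of their UMIs in 1 BTYNB cell. The immunoglobulin variable genes Igkv5-45 and Ighv1-9 had 50.3% and 90.5% in 1 cell. Marchf3 (172 UMIs), Zfp821 (139), Gm34225 (136), Slamf1 (118), a receptor of the SLAM family, and Col27a1 (111) were spread over BTYNB B cells, with at most 4.07% of UMIs in 1 cell, and were at least 2.56-fold lower over all B cells. In the 77 BTYNB B cells of at least 5115 UMIs these 5 genes had 7, 3, 1, 2 and 2 UMIs, so that a lower level of the last 4 in the combination library was not detectable at that depth. The immune gene Acod1 had 26.4% in 1 cell.

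The third group of BTYNB B cells, with neither Ighd nor 3 UMIs of Ighm, held most class-switched cells. At least 3 UMIs of a switched heavy chain gene (Igha, Ighg1, Ighg2b, Ighg2c, Ighg3 or Ighe) were found in 55 of its 165 cells (33.3%, 26.2 to 41.1%), against 8 of 2499 Ighd cells (0.320%) and 6 of 377 Ighm-only cells (1.59%). Igha, the constant gene of IgA, reached 3 UMIs in 35 cells (21.2%) of the third group and Ighg2b in 16 (9.70%). In the Ighd and Ighm-only groups Igha reached 3 UMIs in 4 and 2 cells. In the combination library, 9 of 70 B cells (12.9%, 6.05 to 23.0%) held a switched gene, and 6 of them Igha.

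A plasma cell type was found in 14 cells of the third group, which held at least 100 UMIs of Jchain. Their median depth was 9143.5 UMIs (6219 to 13292), and a median of 53.4% of their UMIs came from immunoglobulin genes, against 0.759% in the other 151 cells of the group, whose median depth was 1583 UMIs. At least 100 UMIs of Igha were found in 13 of them and of Ighg1 in 1, which held 2321 UMIs of Ighg1. Xbp1, the transcription factor of the secretory programme, was present in 14 of 14 and Sdc1 (CD138), a surface marker of plasma cells, in 8, whereas Ms4a1 was present in 1. Mki67 was present in 5 of the 14. All 14 lay above 5115 UMIs and made up 14 of the 18 cells of the third group at that depth. In the combination library at least 100 UMIs of Jchain were found in 1 cell of the Ighd group (187 UMIs), in 1 of the Ighm-only group (270 UMIs) and in 0 of the third group, and the first 2 of these stayed among the deep cells.

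Light chains were counted from Igkc (kappa) and the Iglc genes (lambda). Taking the chain with more UMIs in each cell with at least 3, lambda was the larger in 5.25% of BTYNB B cells (4.47 to 6.12%, 154 cells) and in 17.6% of combination B cells (9.47 to 28.8%, 12 cells). Within the BTYNB library these shares were 4.88% in Ighd cells and 6.39% in Ighm-only cells, and within the combination library 9.38% and 25.8%. A stricter call, at least 3 UMIs and at least 10 times the other chain plus 1, called 507 BTYNB cells kappa and 19 lambda (3.61% lambda, 2.19 to 5.58%), and 13 and 6 combination cells. It left 2515 of 3041 BTYNB and 51 of 70 combination B cells without a call, so this share covers the called cells only. Igkc was present in 6.04% of BTYNB T cells, so that 1 UMI of a light chain was not read as expression.

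Variable genes were read in few cells. In the BTYNB library, 380 B cells (12.5%, 11.3 to 13.7%) held a UMI of an Ighv gene and 327 (10.8%) of an Igkv gene, against 0 and 2 of 1523 T cells. The 380 cells used 83 of the 92 Ighv genes in the files. Ighv3-6 was the most frequent and was found in 42 of them (11.1%, 8.08 to 14.6%), followed by Ighv10-3 in 17, Ighv10-1 in 15, Ighv5-4 in 13 and Ighv1-26 in 12. No Igkv gene was found in more than 19 of the 327 cells (5.81%). In the third group Iglv1 was found in 12 of 15 cells with an Iglv gene. Of the combination B cells, 14 held 13 Ighv genes, and Igkv8-24 was found in 4 of the 22 cells with an Igkv gene.

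**Figure D5:**
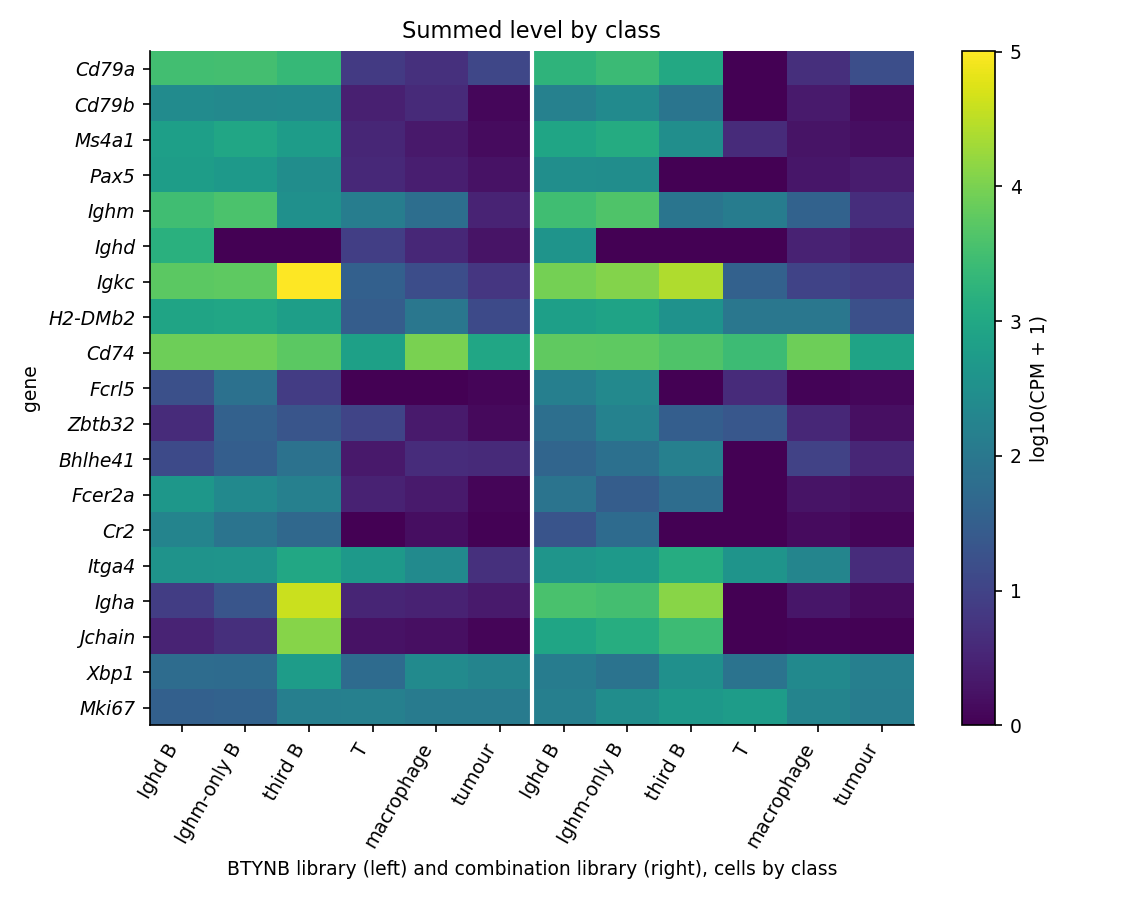
Level of selected genes, as log10 of CPM plus 1, summed over Ighd B cells, Ighm-only B cells, the third group and T cells, macrophages and tumour cells of the BTYNB and combination libraries. Ms4a1 and Pax5 are higher in the Ighd and Ighm-only columns than in those of T cells, macrophages and tumour cells, and Fcrl5, at 15.6 to 226 CPM in Ighd and Ighm-only B cells, lies at 3.15 CPM or less in T cells.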

How the data were processed

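Ascites cells were captured on the BD Rhapsody HT system, 1 pooled library per treatment. The authors counted UMIs per gene and cell with the vendor's pipeline on GRCm39 and deposited matrices of raw counts, which were used as deposited. All 4 matrices were read, and 2 of them held the cells described. The members, gene lists and comparisons were chosen with earlier results of these data known. Cells were filtered and classed as stated above, UMIs were summed per class and scaled to CPM, and log2 ratios used a pseudocount of 1 CPM over genes with at least 50 UMIs. Some list members are not reported here by name. Genes outside the lists were named if among the 15 largest or 15 smallest ratios with a 95% interval beyond 1 or -1 (for Ighm-only against Ighd also of the same sign in the combination library), and V genes if among the 5 found in most cells of a group. Shares have Clopper-Pearson intervals, levels exact Poisson intervals and ratios exact conditional intervals. With 1 library per group no test was made. Thinning drew 1000 UMIs per cell. Scrublet in scanpy 1.11.5 marked 2.61% of cells as doublets in the BTYNB library, 0.767% in the combination library and 0.158% and 0.0128% in the others, too few to rely on, so doublets were kept and removal of the 5% of highest scores was an alternative. Totals ran from 78603888 to 114600397 UMIs per library. Other alternatives changed the gates, filters, depth and pseudocount. Ratios were tested on simulated data. Python 3.11 with numpy 2.4.6, scipy 1.17.1 and pandas 2.3.3 was used.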

Additional observations from a re-analysis of the deposited data

Results flagged for a closer look

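For 6 genes of the lists, the log2 ratios of Ighm-only over Ighd B cells had opposite signs in the BTYNB and combination libraries, with each library's counting interval on its own side of 0. Atxn1 stood at 0.47 in the BTYNB library and -0.75 in the combination library, and Plscr1 at 0.55 and -1.21, both of them B-1 genes. Btk, a kinase of the B cell receptor pathway, stood at -0.35 and 1.17, Cd22, an inhibitory coreceptor, at -0.18 and 0.56, and Pou2af1, a coactivator of Oct proteins, at -0.19 and 0.77. The chemokine gene Ccl4 stood at 0.96 in the BTYNB library (77 against 256 UMIs, 50.6% of the 77 in 1 cell) and at -6.42 in the combination library, where the Ighm-only cells held 0 UMIs and the Ighd cells 18, so that value is no measure of size. These genes were picked for this difference, the difference between the libraries was not tested, and the intervals cover counting error only.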

How the results depend on the processing

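Besides the main form, 17 alternatives were tried, of which the removal of B cells with at least 3 UMIs of another cell type's markers ("other-lineage cells") and the forms without the third group were chosen after seeing the data. The share of B cells in the BTYNB library was 12.4% with Cd79a and Cd79b at 5 UMIs or more, 1.39% at 5115 UMIs or more, 17.3% with mitochondrial UMIs at most 20% and 14.0% without other-lineage cells. The latter gave 0.454% in the combination library. The Ighd share was 63.6% in BTYNB at 5115 UMIs and 67.5% in BTYNB and 14.3% in combination after thinning. The B-1 median of Ighm-only over Ighd was 1.63 with stricter gates (Ighd 2 or more against Ighd 0 and Ighm 10 or more), 0.45 after thinning and -0.066 at 5115 UMIs, where 10 Ighm-only cells were left. Of combination over BTYNB, the B-1 median was 0.30 at 5115 UMIs, 0.73 also without the third group and 0.35 also without other-lineage cells, and the follicular median 0.085, -0.16 and 0.062. In the last form Bhlhe41 was -0.23, Cd80 -0.51, Cr2 0.68 and Fcmr 0.11. Cd80 was -0.041 in the form before it, and Fcmr 0.089 at 5115 UMIs alone. The 49 genes higher in Ighm-only cells became 157 with stricter gates, 26 after thinning, 4 with a minimum of 200 UMIs, 964 with no minimum and 13 with a pseudocount of 10 CPM. The 190 lower genes became 888, 12, 1231 and 15, with no such move after thinning. The 622 genes higher in the combination library became 152, 115 and 69 in the 3 deep forms, 212 with a minimum of 200 UMIs, 2241 with no minimum and 305 with a pseudocount of 10 CPM. The 1065 lower genes became 1636 after thinning, 122, 153 and 55 in the deep forms, and 519, 2637 and 462. The cause of these moves was not tested. Of 330 values recomputed for single genes, 241 moved by less than their counting interval, and 6 changed sign from a main value that was at least 2-fold. Those of Cxcr4, Mki67 and Vpreb3 in Ighm-only over Ighd cells, which lay nearer to 0, changed sign as well. A minimum of 10 light chain UMIs gave the calls of the main rule by construction. No paired analysis was possible because each group is 1 library. Depth limits the combination values, which rest on 70 cells, and the deep forms, which rest on 14 to 77 BTYNB cells.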

Other observations

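Receptors for survival factors and for tissue entry were also read in B cells of both libraries. Tnfrsf13b (TACI, a receptor for BAFF and APRIL) stood at 97.8 CPM in combination and 64.3 CPM in BTYNB B cells, a log2 ratio of 0.60 (0.12 to 1.05) over all B cells and 1.81 (0.94 to 2.83) in cells of at least 5115 UMIs outside the third group. Tnfrsf13c, the BAFF receptor, moved from -0.41 to 0.70 (0.17 to 1.24) between these forms. Itgb1, the beta 1 integrin chain, stood at 607 and 134 CPM (2.17, 1.98 to 2.37) and moved to 0.37 (0.10 to 0.64). S1pr1, the receptor for lymphatic egress, moved from -0.21 to 2.21 (1.46 to 3.10). The chemokine genes Ccl3 and Ccl4 moved from -0.01 and -0.0045 to -2.96 and -3.18. They were found in 46 and 55 of 3041 BTYNB B cells, with 14.3% and 20.4% of their UMIs in 1 cell. The combination Ighd cells held 18 UMIs of Ccl4, 44.4% of them in 1 cell. The Toll-like receptor list had 4 of 7 measured members above 0 over all B cells, with medians of 0.38 and 0.39 in these forms. In the deep cells without markers of other cell types, its median was -0.19 and 2 members had ratios above 0. No test between the libraries was possible, and part of the BTYNB cells of this depth carried dendritic cell RNA.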
